A study of Homo sapiens with 6 samples.

Results

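The interferon regulatory factor (IRF) family was followed in NK-92 cells with and without a knockdown of miR155HG. Its members were taken as the rows of the gene count table with the symbols IRF1, IRF2, IRF3, IRF4, IRF5, IRF7, IRF8 and IRF9, which gave 8 of 36601 genes. Of these 8, 7 passed the filter on low counts (more than 1 CPM, the gene's count scaled to a common library total, in at least 2 libraries) and were among the 12263 genes tested, and IRF5 did not pass. NK-92 is a human natural killer (NK) cell lymphoma line that depends on IL-2. One stable line expressed a control hairpin (shCtrl) and the other a hairpin that targets miR155HG (shmiR155HG), and both received IL-2 at 1000 U/mL with IL-12 at 10 ng/mL for 12 h before poly(A) RNA was sequenced. Each group had 3 libraries, and the labels do not say whether these came from separate cultures or transductions, so p-values measure the spread between these libraries, which may be technical. All cells come from 1 tumour line, so neither group stands for NK cells of several donors.

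IRF proteins share a DNA-binding domain that recognises GAAA-rich elements, the interferon-stimulated response elements (ISRE), in the promoters of antiviral and immune genes. IRF3 and IRF7 are held in the cytoplasm until kinases downstream of nucleic acid sensors phosphorylate them, after which they switch on interferon genes. IRF9 is the DNA-binding part of the complex that answers type I interferon, IRF1 is a classic target of interferon-γ, and IRF4 and IRF8 are lineage factors of lymphoid and myeloid cells. In NK cells IRF1 and IRF8 are known for roles in development and antiviral function.

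Total counts ranged from 33454786 to 39157264 per library, and edgeR's TMM scaling factors were between 0.997 and 1.003. For the knockdown target MIR155HG, counts were 73, 67 and 62 in the shCtrl libraries and 28, 19 and 10 in the shmiR155HG libraries, in the order of their replicate numbers. Its fitted level in shmiR155HG was 29.2% of that in shCtrl (log2 fold change -1.78, edgeR quasi-likelihood adjusted p = 0.00450). MIR155HG was near the filter limit, with 1.77 ± 0.155 CPM in shCtrl and 0.509 ± 0.216 CPM in shmiR155HG (SD, n = 3). It passed the filter only through the shCtrl libraries. NK marker genes differed widely in level. GZMB had 1195 ± 42.5 CPM in shCtrl (SD, n = 3), while FCGR3A had 10.8 CPM and TYROBP 1.41 CPM there, and CD7 had at most 32 counts in a library. MS4A1 of B cells had at most 5 counts in a library, and CLEC4C and CLEC9A of dendritic cells had 0 counts in every library. Other genes listed as markers of B, T and myeloid cells were abundant in shCtrl, with PAX5 (B cells) at 244 CPM, CD3E (T cells) at 331 CPM and ITGAX (myeloid cells) at 132 CPM.

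Of the 7 members tested, IRF8 and IRF3 were lower and IRF1 was higher in shmiR155HG at an adjusted p under 0.05. IRF8 had the largest of the 3 changes, at 77.4% of its shCtrl level. Over all 12263 genes, 7.26% were called higher and 8.02% lower in this comparison, against 1 of 7 and 2 of 7 members. The median log2 fold change was 0.03 over the 7 members tested and 0.00097 over all genes tested. The libraries of the 2 groups did not overlap for 4 of the 7 members, namely IRF1, IRF2, IRF3 and IRF8, against 30.8% of all genes tested. The rule of the study (edgeR's exact test, unadjusted P under 0.01 and fold change over 1.2) was rerun here. It called 8.31% of all genes and only IRF8 among the 7 members. The paper reports different numbers of genes higher and lower at these thresholds. In these bulk libraries fewer cells expressing a gene and less RNA per cell cannot be told apart.

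**Figure D1:**
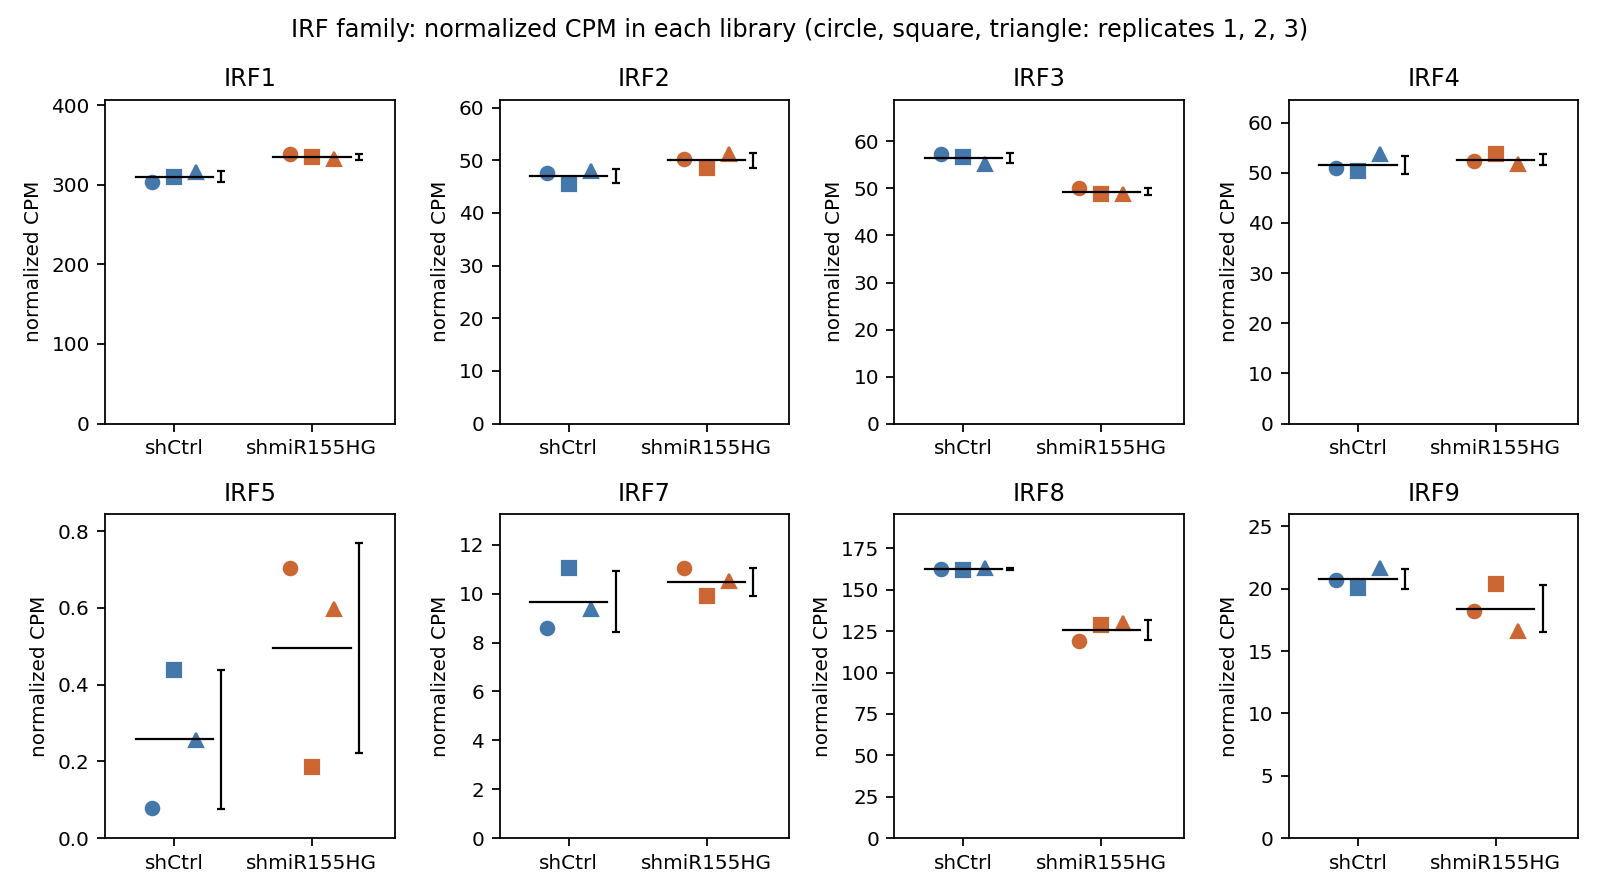
Normalized CPM (linear axis from 0) of the 8 IRF genes in each of the 6 libraries, with shCtrl in blue and shmiR155HG in orange. Horizontal lines are group means and the bars beside them the SD (n = 3). The shmiR155HG libraries lie between 119 and 130.0 for IRF8, below the shCtrl libraries at 162 to 163, while the 2 groups overlap for IRF4, IRF5, IRF7 and IRF9.

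IRF8 (ENSG00000140968), also called ICSBP, is a lineage factor that needs partner proteins to bind DNA and is best known from dendritic cells, monocytes and B cells. The gene lies on the plus strand at chr16:85899116-85922606 (hg38, GENCODE release 44), and its canonical transcript has 9 exons. Its level was 163, 162 and 163 CPM in shCtrl replicates 1, 2 and 3 and 119, 129 and 130.0 CPM in shmiR155HG replicates 1, 2 and 3. Every shmiR155HG library was below every shCtrl library. The group means were 163 ± 0.634 and 126 ± 6.05 CPM (SD, n = 3), with a log2 fold change of -0.37 (SE 0.0445, 95% interval -0.46 to -0.28, edgeR quasi-likelihood adjusted p = 7.11e-07). This absolute change was larger than that of 87.2% of the genes tested. IRF8 was called lower in 15 of 15 alternative settings, with log2 fold changes from -0.39 to -0.33.

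Among the 8 members, only IRF8 had a canonical 3′UTR with a match to the seed of miR-155-5p, the main microRNA processed from the MIR155HG transcript. The 3′UTRs differ in length, and those of IRF3 and IRF7 have only 76 and 90 nt. The mature sequence (RefSeq, GRCh38.p14, chr21:25573983-25574006, plus strand) and the site in the IRF8 3′UTR are shown because shmiR155HG targets the host transcript of this microRNA. Capitals mark bases 2 to 8 of the microRNA and the 7 complementary bases of the site.
hsa-miR-155-5p: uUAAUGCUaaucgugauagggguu
IRF8 3′UTR site: tgtccaacaaAGCATTAtatttt
The site starts 1131 nt after the stop codon in a 3′UTR of 1324 nt. Such a match (AGCATTA) occurred in 1 of the 8 members, close to the 11.9% of the 10763 tested genes with an annotated 3′UTR. A match is a description of the letters, not a measured target, and its part in the change of IRF8 was not tested. The study also concerned miR-6756-5p, which was not used here. The opposite arm, miR-6756-3p, matched (GAAGGGG) only the 3′UTR of IRF4 among the members, against 14.6% of the same genes.

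IRF4 (ENSG00000137265), the closest paralog of IRF8, drives plasma cell and effector T cell programmes and lies on the plus strand at chr6:391739-411443. Its level was 50.9, 50.3 and 53.7 CPM in shCtrl and 52.3, 53.8 and 51.7 CPM in shmiR155HG replicates 1, 2 and 3. The 2 groups overlapped, and the log2 fold change was 0.03 (SE 0.0650, 95% interval -0.11 to 0.16, edgeR quasi-likelihood adjusted p = 0.843). The log2 ratio of IRF4 over IRF8 within a library was -1.67, -1.68 and -1.60 in shCtrl and -1.18, -1.26 and -1.33 in shmiR155HG replicates 1, 2 and 3. Each shmiR155HG library had a higher ratio than any shCtrl library, with a difference in mean log2 ratio of 0.40. An exact two-sided permutation test gave p = 0.1, the smallest that 3 against 3 libraries allow, and 0.15 after adjustment over the 3 ratios examined.

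IRF1 (ENSG00000125347) activates genes of antigen presentation and interferon-γ responses and lies on the minus strand at chr5:132440440-132508719, with 10 exons in its canonical transcript. It had the highest counts of the family, and its mean level was above that of 95.8% of the genes tested. The level was 303, 310.2 and 317 CPM in shCtrl replicates 1, 2 and 3 and 339, 334 and 332 CPM in shmiR155HG replicates 1, 2 and 3. All 3 shmiR155HG libraries were above all 3 shCtrl libraries, by a small margin. Group means were 310.0 ± 6.67 and 335 ± 3.50 CPM (SD, n = 3), an increase of 8.09% in the fit (log2 fold change 0.11, SE 0.0345, 95% interval 0.04 to 0.18, edgeR quasi-likelihood adjusted p = 0.0258). This call was lost without the filter on low counts, and on leaving out any library other than shCtrl replicate 3, with adjusted p up to 0.104 and log2 fold changes from 0.10 to 0.13. An antisense gene, C5orf56 (IRF1-AS1 in GENCODE), shares 580 bases with the exons of the IRF1 transcript. It had 24.5 ± 1.41 CPM in shCtrl and 22.5 ± 2.53 CPM in shmiR155HG (log2 fold change -0.13, edgeR quasi-likelihood adjusted p = 0.456), and its part in the IRF1 counts was not tested.

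IRF2 (ENSG00000168310) binds the same elements as IRF1 and is known mainly as its antagonist. It lies on the minus strand at chr4:184385702-184474558. Its level was 47.5, 45.5 and 48.0 CPM in shCtrl and 50.2, 48.5 and 51.3 CPM in shmiR155HG replicates 1, 2 and 3. The 2 groups did not overlap, but the log2 fold change of 0.09 had a 95% interval of -0.05 to 0.23 and did not pass the test (SE 0.0664, edgeR quasi-likelihood adjusted p = 0.419). The log2 ratio of IRF1 over IRF2 averaged 2.72 ± 0.0488 in shCtrl and 2.74 ± 0.0452 in shmiR155HG (SD, n = 3). The libraries of the 2 groups overlapped in this ratio, and the difference of 0.02 gave p = 0.6 in the exact permutation test.

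**Figure D2:**
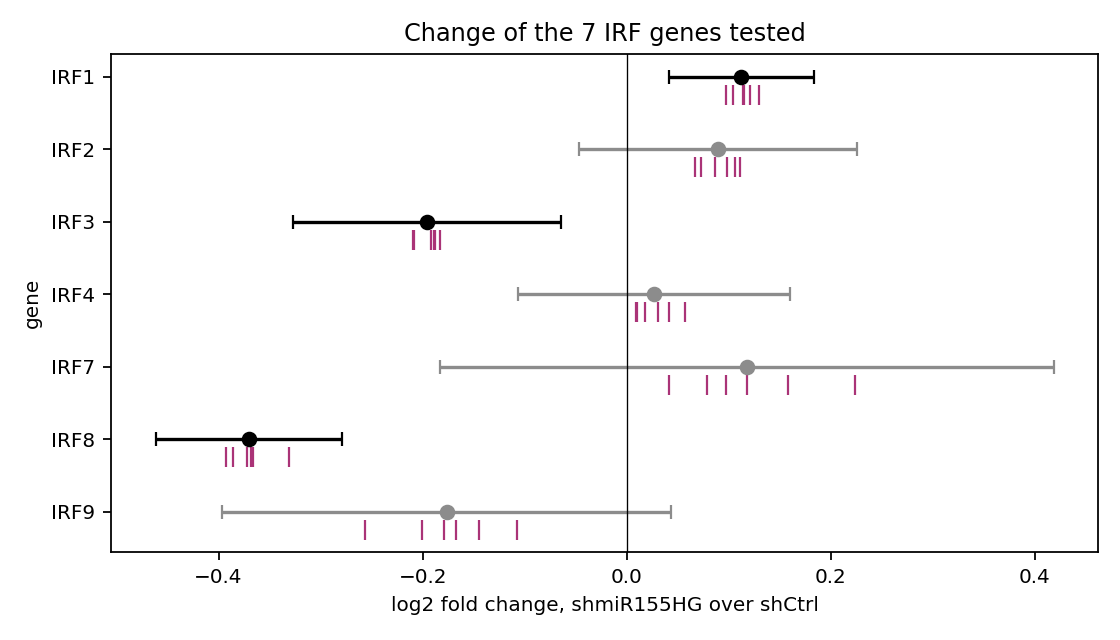
Log2 fold change (shmiR155HG over shCtrl) of the 7 members tested, with 95% intervals from the quasi-likelihood fit. Black points passed the test at an adjusted p under 0.05, grey points did not, and the short ticks below each point are the 6 fits that leave out 1 library. The intervals of IRF8 (-0.46 to -0.28) and IRF3 (-0.33 to -0.06) lie below 0 and that of IRF1 (0.04 to 0.18) above it.

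IRF3 (ENSG00000126456), which is made without stimulation and activated by the kinase TBK1, lies on the minus strand at chr19:49659569-49665875. Its level was 57.4, 56.7 and 55.2 CPM in shCtrl replicates 1, 2 and 3 and 50.1, 48.8 and 48.9 CPM in shmiR155HG replicates 1, 2 and 3. Every shmiR155HG library was below every shCtrl library. Group means were 56.4 ± 1.10 and 49.3 ± 0.730 CPM (SD, n = 3), and the fitted level in shmiR155HG was 87.3% of that in shCtrl (log2 fold change -0.20, SE 0.0639, 95% interval -0.33 to -0.06, edgeR quasi-likelihood adjusted p = 0.0359). The call was lost on leaving out any library other than shCtrl replicate 3, with adjusted p up to 0.118, while the log2 fold change stayed between -0.21 and -0.18. The neighbouring gene BCL2L12 on the opposite strand shares 227 bases with the IRF3 transcript. BCL2L12 had 33.6 ± 3.73 CPM in shCtrl and 34.5 ± 1.13 CPM in shmiR155HG (log2 fold change 0.04, edgeR quasi-likelihood adjusted p = 0.828), and strand use in counting is not given in the sources used here.

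IRF7 (ENSG00000185507), the interferon-inducible partner of IRF3 that amplifies interferon-α production, lies on the minus strand at chr11:612553-615983. It was low, with 8.61, 11.0 and 9.37 CPM in shCtrl and 11.0, 9.90 and 10.5 CPM in shmiR155HG replicates 1, 2 and 3. The 2 groups overlapped, and the 95% interval of the log2 fold change ran from -0.18 to 0.42 (estimate 0.12, SE 0.147, edgeR quasi-likelihood adjusted p = 0.668). The estimate was 0.04 without shCtrl replicate 1 and 0.22 without shCtrl replicate 2, and it passed the test in neither. The log2 ratio of IRF7 over IRF3 was -2.73, -2.35 and -2.55 in shCtrl and -2.18, -2.30 and -2.21 in shmiR155HG replicates 1, 2 and 3. The ratio was higher in each shmiR155HG library than in any shCtrl library, by 0.32 on average, with p = 0.1 in the exact permutation test (0.15 adjusted over the 3 ratios).

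**Figure D3:**
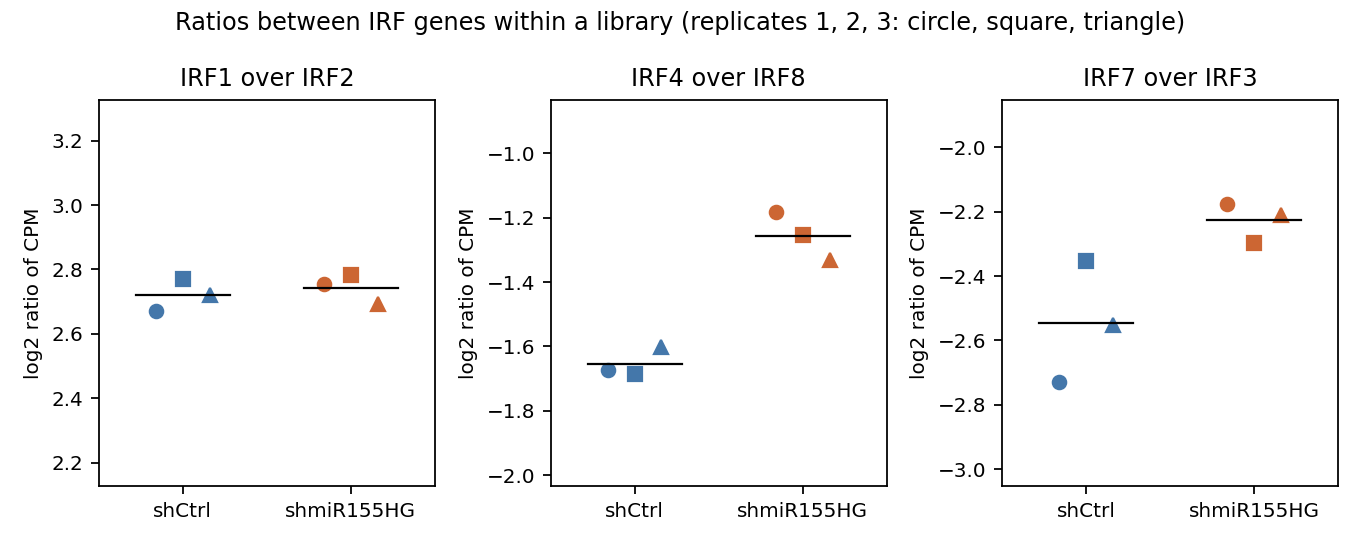
Log2 ratio of normalized CPM between pairs of IRF genes within each library, with lines at the group means (n = 3) and the same span of 1.2 log2 units on each axis. The groups overlap for IRF1 over IRF2 and are apart for IRF4 over IRF8, with means of -1.65 and -1.26, and for IRF7 over IRF3, with means of -2.55 and -2.23.

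IRF9 (ENSG00000213928), the DNA-binding subunit of the ISGF3 complex, lies on the plus strand at chr14:24161234-24168043. Its level was 20.7, 20.1 and 21.7 CPM in shCtrl and 18.2, 20.4 and 16.6 CPM in shmiR155HG replicates 1, 2 and 3. One shmiR155HG library, replicate 2, lay within the shCtrl range and the other 2 below it, and the log2 fold change of -0.18 did not pass the test (SE 0.107, 95% interval -0.40 to 0.04, edgeR quasi-likelihood adjusted p = 0.305). It was -0.11 without shmiR155HG replicate 3 and -0.26 without shmiR155HG replicate 2. GENCODE also lists a longer protein-coding gene on the same strand, ENSG00000259529, that covers 1513 of the 1626 bases of the IRF9 transcript. Of the windows of 100 nt in the IRF9 transcript, 92.6% are also in a transcript of another gene, against 8.62% for IRF3, 4.14% for IRF1 and 0% for the other members. No gene that overlaps IRF9 in GENCODE has a row in the deposited counts, so IRF9 reads were not divided with such a row. Whether reads from those genes were counted as IRF9 is not known, and the IRF9 counts are uncertain to that extent.

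The interferon-γ activated element known as GAS was looked for in promoters, since IRF1 is a known target of interferon-γ. RefSeq promoter windows (GRCh38.p14, 250 bases before to 50 after a start) were at hand for IRF1, IRF4, IRF5, IRF8 and IRF9. Among all 35116 such windows, 7.66% held the GAS-like motif TTCNNNGAA on either strand, 3.57% held the ISRE-like motif (GAAA, any 2 bases, GAAA), and 58.7% held the κB-like motif (GGG, any 5 bases, CC). The GAS-like motif occurred once in the window of IRF1 and once in that of IRF9, shown here with the motif in capitals.
IRF1 promoter, chr5:132490724-132491023, minus strand: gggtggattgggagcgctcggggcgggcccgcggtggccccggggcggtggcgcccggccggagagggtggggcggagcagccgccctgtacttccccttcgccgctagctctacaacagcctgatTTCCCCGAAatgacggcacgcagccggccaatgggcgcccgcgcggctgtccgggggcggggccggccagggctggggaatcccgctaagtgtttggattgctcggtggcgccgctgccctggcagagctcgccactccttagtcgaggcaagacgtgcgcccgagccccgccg
IRF9 promoter, chr14:24161015-24161314, plus strand: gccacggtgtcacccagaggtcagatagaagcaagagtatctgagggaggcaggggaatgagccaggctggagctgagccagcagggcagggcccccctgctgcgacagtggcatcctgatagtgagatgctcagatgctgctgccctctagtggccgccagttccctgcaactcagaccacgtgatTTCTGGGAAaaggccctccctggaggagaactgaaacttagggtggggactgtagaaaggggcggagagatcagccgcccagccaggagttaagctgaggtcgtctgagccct
In IRF1 the match is TTCCCCGAA at -124 to -116 from the start site, and in IRF9 it is TTCTGGGAA at -63 to -55. Beside the GAS-like match, the IRF1 window held 6 κB-like matches and the IRF9 window 3, with some of these overlapping each other. Such κB-like matches were not particular to these 2 genes, with 4 in the IRF4 window and 7 in the IRF5 window at its canonical start. The windows of IRF4 and IRF5 held no GAS-like match, and no member's window held an ISRE-like match. The start sites of the IRF8 windows lie 3668 and 3853 nt downstream of the canonical start, so the windows do not cover its canonical promoter and are not shown.

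The remaining member was near the detection limit. IRF5 (ENSG00000128604, chr7:128937457-128950038, plus strand), which acts downstream of Toll-like receptors in myeloid and B cells, had 3, 16 and 10 counts in shCtrl and 27, 7 and 20 counts in shmiR155HG replicates 1, 2 and 3. The 2 groups overlapped, and with no filter the log2 fold change of 0.93 did not pass the test (edgeR quasi-likelihood adjusted p = 0.584).

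Per kilobase of canonical transcript, the order of levels in shCtrl was IRF1, IRF8, IRF3, IRF2, IRF9, IRF4, IRF7 and IRF5. The values were 87.2 ± 1.88, 60.9 ± 0.238, 35.4 ± 0.691 and 20.8 ± 0.593 CPM per kilobase for the first 4 and 12.8 ± 0.493, 9.72 ± 0.337, 5.03 ± 0.649 and 0.0888 ± 0.0624 CPM per kilobase for the others (SD, n = 3). Neighbours in this order did not overlap between genes over the 3 shCtrl libraries. With the union of all annotated exons as the length, IRF1, IRF8 and IRF3 stayed in the first places, but IRF4 came before IRF2 and IRF9 came after IRF7, so the lower part of the order depends on the transcript assumed. In shmiR155HG the order per kilobase of canonical transcript was the same, with 94.3 ± 0.984 for IRF1, 47.1 ± 2.27 for IRF8 and 30.9 ± 0.458 for IRF3.

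The sum over the 8 members was 232 ± 2.20 CPM per kilobase in shCtrl and 221 ± 0.837 in shmiR155HG (SD, n = 3), with no overlap between libraries. IRF1 made up 37.6% ± 0.478 of this sum in shCtrl and 42.6% ± 0.544 in shmiR155HG, and IRF8 made up 26.3% ± 0.222 and 21.3% ± 0.975. These shares depend on each other and on the lengths assumed, and are given as a description without a test.

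**Figure D4:**
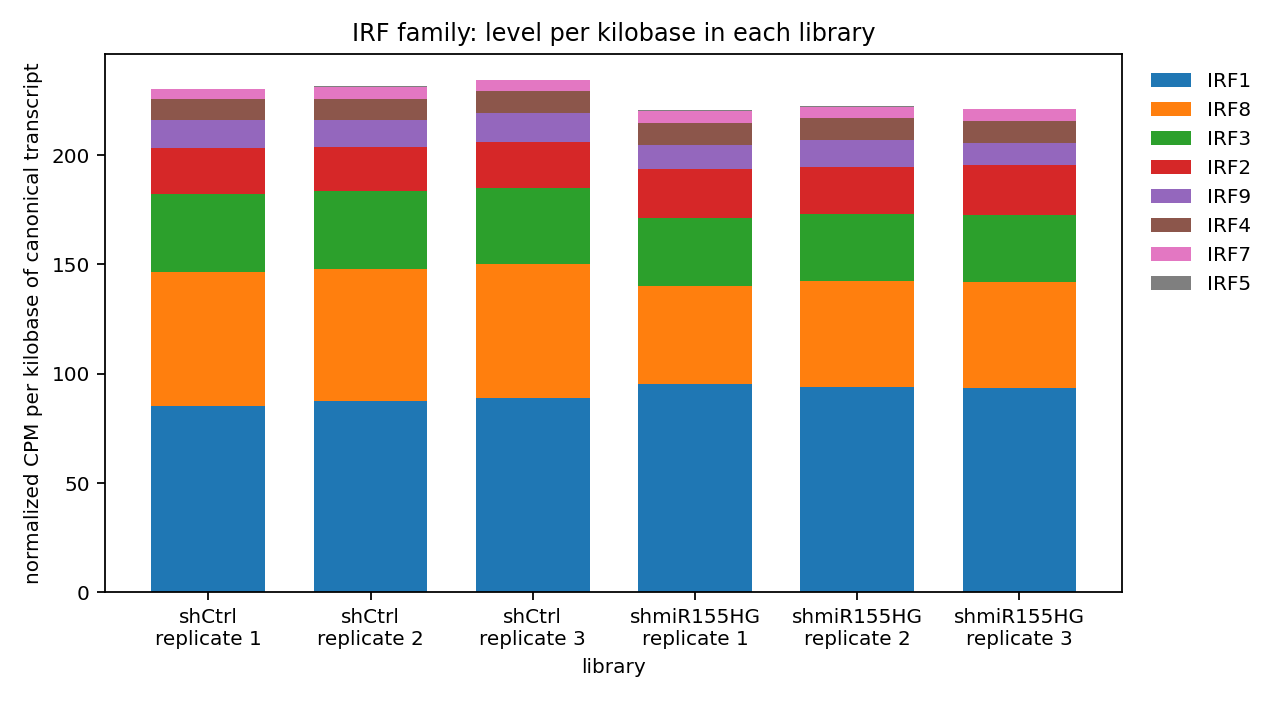
Normalized CPM per kilobase of canonical transcript of the 8 IRF genes, stacked from 0 in each of the 6 libraries. The stacks reach 230.2 to 234 in shCtrl and 221 to 222 in shmiR155HG. The IRF8 segment is smaller and the IRF1 segment larger in each shmiR155HG library, and IRF5 is too small to see.

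For each member called, the genes with the most similar profile over the 6 libraries were searched among the 8788 genes averaging 10 CPM or more, by the root mean square (rms) difference of centred log2 CPM. IRF8 was closest to JAK3, the kinase of the common γ-chain cytokine receptors (rms difference 0.0265), which had 97.5 CPM in shCtrl and 74.5 CPM in shmiR155HG, and to the mitochondrial seryl-tRNA synthetase SARS2 (0.0276). IRF3 was closest to LDHB, a lactate dehydrogenase subunit (0.0125), and the asparaginyl-tRNA synthetase NARS (0.0148). IRF1 was closest to RYBP, a Polycomb group protein (0.00852), and the lipoprotein receptor LRP8 (0.0146). Of these 6 genes, RYBP did not itself pass the test (edgeR quasi-likelihood adjusted p = 0.0727), and the other 5 did. They were picked for their likeness to a called member in these same libraries, so their results are not independent of that member's. A shared regulation was not tested.

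Genes around the family were read from lists, against the 7.26% called higher, the 8.02% called lower and the median of 0.00097 over all genes tested. Of the interferons, their receptors and receptor kinases, 13 of 21 were tested, and 6 were called lower and 0 higher (median log2 fold change -0.12). At an unadjusted p under 0.05 in the edgeR quasi-likelihood test, 1 was higher, and DESeq2 called 0 higher. Without shmiR155HG replicate 2, 3 of them were called lower. Those that fell included IFNG, TYK2 and USP18. IFNG, the cytokine that induces IRF1, had 168 ± 7.07 CPM in shCtrl and 127 ± 4.23 CPM in shmiR155HG (log2 fold change -0.41, edgeR quasi-likelihood adjusted p = 1.40e-07). STAT2, a partner of IRF9 in ISGF3, fell from 22.3 ± 0.884 to 17.2 ± 1.11 CPM (log2 fold change -0.37). USP18, an inhibitor of type I interferon receptor signalling, fell by 0.42 on the log2 scale. The type I and type III interferon genes on the list had at most 4 counts in any library, and the receptor subunit IFNGR2 was listed at 0 in all 6.

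Among sensors, adaptors and kinases that act upstream of IRF3, IRF5 and IRF7, 22 of 26 genes were tested, 3 rose (IRAK1, TRAF3 and IKBKB) and 2 fell (IKBKE and IFIH1), with a median log2 fold change of -0.04. The number called lower was 0 without shmiR155HG replicate 1, and the number called higher was 1 without shCtrl replicate 1. IKBKE, the kinase related to TBK1, went from 29.1 ± 1.54 to 23.8 ± 0.387 CPM (log2 fold change -0.29), and the RNA sensor IFIH1 (MDA5) from 36.9 ± 4.31 to 30.0 ± 2.02 CPM (log2 fold change -0.30). IKBKB, the NF-κB kinase that also activates IRF5, went from 82.5 ± 5.96 to 95.1 ± 3.15 CPM (log2 fold change 0.21). The receptors TLR4, TLR7, TLR8 and TLR9 were not tested, with at most 17 counts in a library.

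Of partners and regulators of IRF proteins, 19 of 22 were tested, 7 rose and 2 fell, and the median log2 fold change was 0.13. Those that rose were JUND, IRF2BPL, IRF2BP2, IKZF3, EP300, CREBBP and DEF6. JUND, a subunit of the AP-1 factor that binds composite elements with IRF4 and IRF8, had 279 ± 16.9 CPM in shCtrl and 412 ± 8.75 CPM in shmiR155HG (log2 fold change 0.57, edgeR quasi-likelihood adjusted p = 2.56e-11). IRF2BPL, a relative of the IRF2-binding corepressors, had 63.7 ± 4.24 and 82.1 ± 4.23 CPM (log2 fold change 0.36). IKZF1 fell, as did SWAP70, which like DEF6 is known to restrain IRF4, from 9.06 ± 1.51 to 6.06 ± 0.407 CPM (log2 fold change -0.58). SPI1 (PU.1), the main partner of IRF8 in myeloid cells, had 0 counts in every library.

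**Figure D5:**
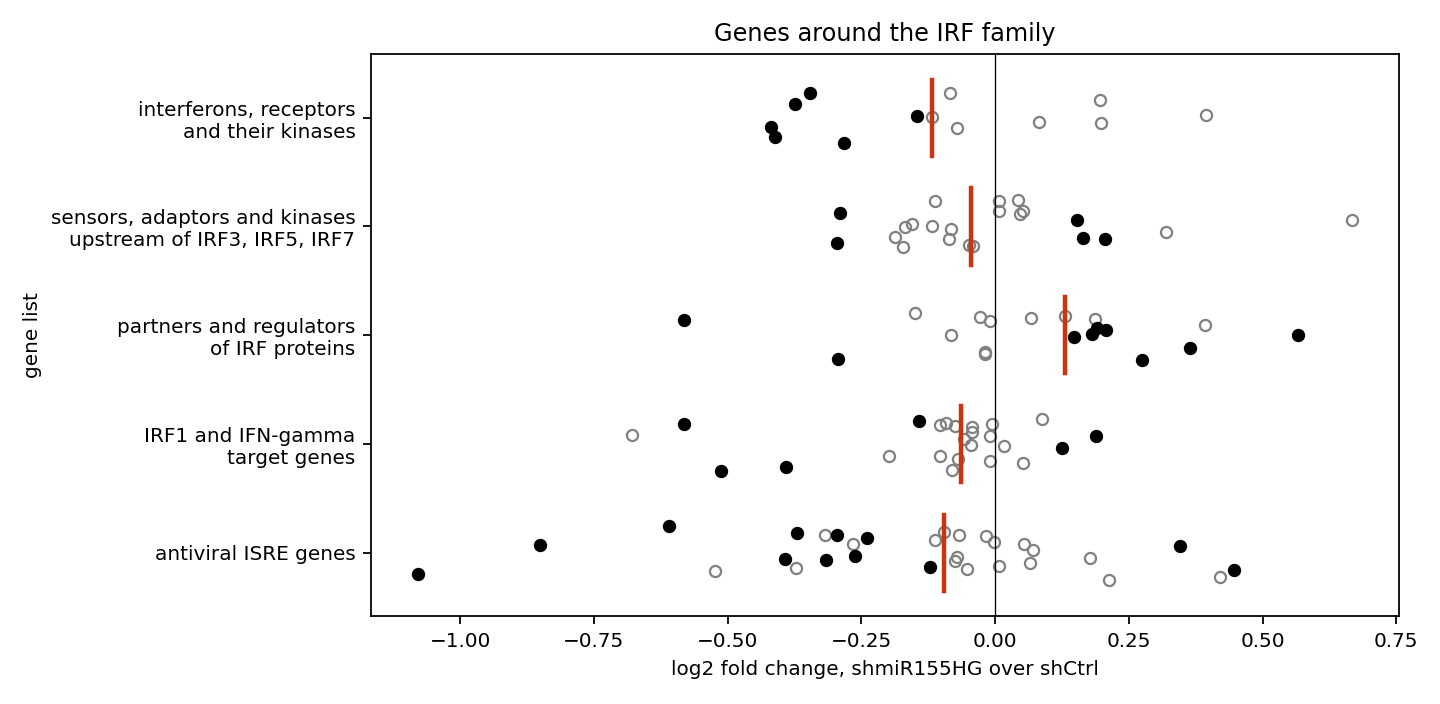
Log2 fold change (shmiR155HG over shCtrl) of each tested gene of 5 lists around the IRF family, with filled points for adjusted p under 0.05, open points for the rest and red lines at the list medians. The medians are -0.12, -0.04, 0.13, -0.06 and -0.10 from top to bottom, and the vertical spread of points within a list has no meaning.

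Target genes of the family were counted in the same way. Of the IRF1 and interferon-γ target genes, 24 of 28 were tested, 2 rose (TAP1 and NLRC5) and 4 fell (GBP2, WARS, CASP1 and CD274), and the median log2 fold change was -0.06. The GTPase gene GBP2 went from 66.7 ± 4.50 to 46.7 ± 0.220 CPM (log2 fold change -0.51), the inflammatory caspase gene CASP1 from 43.8 ± 1.52 to 33.4 ± 1.07 CPM (log2 fold change -0.39) and CD274, which encodes PD-L1, from 8.84 ± 0.358 to 5.91 ± 1.22 CPM (log2 fold change -0.58). Of the antiviral genes with ISRE elements, 31 of 35 were tested, 10 fell and 2 rose (IFIT3 and RSAD2), with a median log2 fold change of -0.10. MX1, an antiviral GTPase, went from 11.4 ± 1.18 to 5.40 ± 0.559 CPM (log2 fold change -1.08, edgeR quasi-likelihood adjusted p = 2.07e-05), OAS1 from 4.04 ± 1.31 to 2.24 ± 0.236 CPM (log2 fold change -0.85) and XAF1 from 27.1 ± 1.49 to 17.8 ± 1.71 CPM (log2 fold change -0.61).

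Markers of other cells were read beside IRF4 and IRF8, which B cells, monocytes and dendritic cells also express. Of 17 markers of B, T, myeloid and dendritic cells, 5 were tested, PAX5 rose and ITGAX fell. PAX5 had 244 ± 18.0 CPM in shCtrl and 342 ± 1.66 CPM in shmiR155HG, and ITGAX (CD11c) had 132 ± 8.54 and 102 ± 1.89 CPM. CD3E had 331 ± 3.48 and 335 ± 6.50 CPM and did not pass the test (edgeR quasi-likelihood adjusted p = 0.755). The summed level of the list was 703 to 738 CPM in shCtrl and 781 to 793 CPM in shmiR155HG, while 12 of the 17 had at most 43 counts in a library, among them CD14, CD4, CD8A and MS4A1. Of 14 NK markers, 13 were tested, GZMB, PRF1 and NCR3 fell and KLRC1 and IL2RB rose, and the summed level was 4464 to 4488 CPM in shCtrl and 3988 to 4143 CPM in shmiR155HG. GZMB, which encodes granzyme B, went from 1195 ± 42.5 to 543 ± 29.9 CPM (log2 fold change -1.14), a larger drop than that of the sum, and IL2RB from 1006 ± 44.9 to 1270 ± 17.8 CPM (log2 fold change 0.34). The part of these differences in the change of IRF8 was not tested.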

How the data were processed

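RNA-seq of poly(A) RNA from 6 NK-92 libraries was used. The authors used HISAT2 (genome build hg38), StringTie and prepDE.py3 and deposited whole-number gene counts, not normalized. Tool versions, annotation release and strand use are not given in the sources used here. Groups were taken from the sample titles, because in the treatment tags of 2 shmiR155HG libraries, replicates 2 and 3, the number within the gene name differs.

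Genes above 1 CPM in at least 2 libraries were kept, scaled by TMM and tested over all of them with edgeR 4.0.16's quasi-likelihood test in R 4.3.3 (robust, Benjamini-Hochberg adjusted p under 0.05), after a check on simulated data. CPM are from TMM-scaled library sizes. Fold changes are those of the fit at edgeR's default prior count. The log2 CPM behind the ratios, the similar profiles and the correlations between libraries used a prior count of 2. Alternatives covered scaling, filters, halved counts, prior count, a replicate block, edgeR's exact test, DESeq2 1.42.0, limma-voom (limma 3.58.1) and each library left out.

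All members were named, then per list the 3 called genes with the largest change and a mean of at least 1 CPM, with IFNG and STAT2 added, and 2 similar profiles per member called. Other called genes are listed only to complete a count, and C5orf56 and BCL2L12 because they overlap a member. Members and lists were chosen with earlier results of these data known. Positions are from GENCODE release 44, sequences of microRNAs and promoters from RefSeq. Promoter windows of IRF2, IRF3 and IRF7 and protein sequences were not used here. Some items are not reported here.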

Additional observations from a re-analysis of the deposited data

How the results depend on the processing

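IRF8 kept its direction and its call under all 15 alternatives, and IRF2, IRF4, IRF7 and IRF9 were called under none of theirs. IRF1 was called under 8 of 15 and IRF3 under 9 of 15. Without the filter 0 members were called higher. Under edgeR's exact test with the thresholds of the study, 0 members were higher and 1 lower, 552 genes were higher and 467 lower in all, and the genes called higher numbered 0 among sensors and kinases, 3 among partners, 0 among IRF1 and interferon-γ targets and 1 among NK markers. With edgeR's filterByExpr, 1 of the IRF1 and interferon-γ targets was higher.

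Leaving out 1 library gave 0 to 1 members higher and 1 to 2 lower, and 580 (without shmiR155HG replicate 2) to 891 genes higher. It gave 1 (without shCtrl replicate 1) to 3 sensors and kinases higher and 0 (without shmiR155HG replicate 1) to 2 lower, 1 to 2 partners lower, 3 (without shmiR155HG replicate 2) to 6 genes of the interferon and receptor list lower, 1 to 2 IRF1 and interferon-γ targets higher and 1 to 2 NK markers higher. The difference in the log2 ratio of IRF1 over IRF2 ranged from -0.0015 (without shCtrl replicate 1) to 0.0476. The cause of these shifts was not tested.

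Same-numbered libraries did not deviate together (correlations of -0.0128, 0.0121 and 0.0197), and not every library correlated best with its own number, so the numbers were not taken as pairs. With the replicate block 829 genes were higher and 909 lower, 1 member was higher (IRF1, adjusted p = 0.0463) and 2 lower (IRF3, adjusted p = 0.0494, and IRF8), and 1 of the IRF1 and interferon-γ targets was higher. IRF5, with 3 to 27 counts per library, has little precision.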
